A study of Mus musculus with 4 samples.

Results

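Integrins and laminins were examined in Comma D beta, a mammary epithelial line of the mouse, as the genes whose array symbol begins with Itga or Itgb and a digit or single letter, or with Lama, Lamb or Lamc and a digit, leaving out Itgb1bp and Itgbl genes. The rule found 36 of 18194 named genes: 25 integrin genes, 10 laminin genes and Itgb3bp, which encodes a centromere protein and no integrin subunit but carries a matching symbol. Itga11 and Itgad had no named probe set and were not analysed here. Each gene was read from its probe set (a group of oligonucleotides on the array) with the highest mean over 4 arrays. Of the 36 genes, 24 had a log2 level of 3.63 or more, the pooled median of the table, on at least 1 array, and 12 did not. The 24 were 15 integrin genes, 8 laminin genes and Itgb3bp. Below, Itgb3bp is counted in wherever the integrin and laminin genes, or members, are counted as a set, also for promoter windows.

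The 4 arrays hold 1 sample each of untreated Sca1+ cells, untreated Sca1- cells, Sca1+ cells given doxycycline (dox) and Sca1- cells given dox. Dox was used at 100 ng/ml for 1 day, after an overnight culture that all groups shared (DMEM F12, 2% serum, 5 ug/ml of insulin, 10 ng/ml of EGF), and 200k cells of each Sca1 fraction were sorted. Sca1 is a surface protein used to divide mammary cells, and its own gene was not analysed here, so the fractions rest on their labels. The epithelial label fits the markers Epcam, at 10.28 to 11.69 (log2), and Krt18, at 9.77 to 11.37, on the 4 arrays. Both were picked from 8 luminal markers after their values were seen. Of the others, Krt8 read 5.94 to 9.36, Krt7 5.09 to 9.97 and Cldn7 4.82 to 9.52. Elf5 read 3.32 to 7.02 and Esr1 4.91 to 6.14, and Krt19 read 3.32, the lowest level in the table, on all 4 arrays. The series title names Bcl11b and quiescent mammary repopulating units; what dox switches on in this line is not stated in the labels, and no array of a line without such a construct was analysed here, so an effect of dox itself cannot be told apart from that of a dox-controlled gene. Because each group is a single array, no difference below has a replicate error or a test, and a gene is counted by size alone, as 2-fold or more in either direction (a log2 difference of 1).

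Laminins are secreted trimers of an alpha, a beta and a gamma chain that polymerise into basement membranes. Integrins are membrane-spanning pairs of an alpha and a beta subunit that bind such matrix proteins and connect them, through adaptor proteins, to the cytoskeleton. In the mammary gland, basal cells rest on a laminin-rich basement membrane. They hold it through the integrin alpha 6 beta 4 of hemidesmosomes, which binds laminins that hold the Lama3 and Lamb3 chains, and through integrins with the beta 1 subunit.

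With dox, Lamb3, Lama5, Itgb4 and Itgb5 were lower by 2-fold or more in both fractions, and Lamb1 and Itga8 were higher by 2-fold or more in both; of all genes that passed the filter, 8.56% were lower and 5.29% higher by this rule. RefSeq promoter windows of GRCm38.p6 were available for 24 of the 36 genes and for 5 of these 6. The 250 bases before the annotated start are printed for those 5, 5′ to 3′ on the gene's own strand, to show the sequence at genes that differed in opposite directions. Capitals mark GC boxes (GGGCGG) and CCAAT boxes (CCAAT), searched on both strands, and no marked stretch overlaps another. The windows lie at chr1:193301744-193301993 on the plus strand (Lamb3, the first of its 2 annotated starts), chr2:180225860-180226109 on the minus strand (Lama5), chr16:33829415-33829664 on the plus strand (Itgb5), chr12:31265043-31265292 on the plus strand (Lamb1) and chr2:12301945-12302194 on the minus strand (Itga8).
Lamb3: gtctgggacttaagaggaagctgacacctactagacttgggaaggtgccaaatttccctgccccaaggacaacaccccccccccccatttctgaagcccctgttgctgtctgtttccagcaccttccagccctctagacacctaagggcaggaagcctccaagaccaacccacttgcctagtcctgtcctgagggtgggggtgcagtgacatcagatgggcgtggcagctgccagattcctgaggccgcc
Lama5: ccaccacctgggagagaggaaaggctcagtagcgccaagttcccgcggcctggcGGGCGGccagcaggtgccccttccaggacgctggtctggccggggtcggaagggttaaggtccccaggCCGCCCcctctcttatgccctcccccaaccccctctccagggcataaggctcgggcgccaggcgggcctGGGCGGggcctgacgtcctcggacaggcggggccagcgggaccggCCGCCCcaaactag
Itgb5: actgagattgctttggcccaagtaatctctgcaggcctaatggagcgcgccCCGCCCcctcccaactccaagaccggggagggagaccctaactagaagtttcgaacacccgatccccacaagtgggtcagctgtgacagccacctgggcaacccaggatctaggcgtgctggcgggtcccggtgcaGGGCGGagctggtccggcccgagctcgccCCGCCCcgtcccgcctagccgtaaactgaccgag
Lamb1: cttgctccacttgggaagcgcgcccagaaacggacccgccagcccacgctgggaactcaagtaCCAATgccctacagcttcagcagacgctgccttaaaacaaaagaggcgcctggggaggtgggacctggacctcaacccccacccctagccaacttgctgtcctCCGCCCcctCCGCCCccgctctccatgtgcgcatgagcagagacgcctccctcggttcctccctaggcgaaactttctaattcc
Itga8: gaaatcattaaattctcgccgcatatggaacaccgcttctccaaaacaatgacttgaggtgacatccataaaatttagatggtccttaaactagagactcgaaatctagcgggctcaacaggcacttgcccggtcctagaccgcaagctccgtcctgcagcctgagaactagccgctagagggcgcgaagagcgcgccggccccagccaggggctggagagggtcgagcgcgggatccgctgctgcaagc

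GC boxes numbered 4 in the Lama5 window, 3 in that of Itgb5 and 2 in that of Lamb1, which also held the single CCAAT box, and there were 0 in those of Lamb3 and Itga8. Genes with GC boxes were thus among both those lower and those higher with dox. Of all 32851 windows of this length in the table, 32.7% held a GC box and 33.8% a CCAAT box, against 9 (33.3%) and 4 (14.8%) of the 27 windows of the integrin and laminin genes. An AP-1 motif (TGANTCA) occurred in 6.75% of all windows and in 1 of the 27, at Itgax, and a TATA box (TATAAA) in 12.4% and in 0 of the 27. G and C made up 72.4% of the Lama5 window, 65.2% of that of Itgb5, 62.0% of that of Lamb1, 58.8% of that of Lamb3 and 56.4% of that of Itga8, against a median of 52.4% over all windows.

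Over the 24 integrin and laminin genes (Itgb3bp among them) that passed the expression filter, dox differences ran in both directions and centred near 0. In Sca1+ cells 4 of the 24 were higher by 2-fold or more with dox, beside 8.47% of all 12264 genes that passed, and 6 were lower by 2-fold or more, beside 12.9%. In Sca1- cells 2 were higher (7.2% of all genes) and 4 lower (11.3%). Counting only genes that did so in each fraction, 2 of the 24 were higher (5.29% of all genes) and 4 lower (8.56%). These are 8.33% and 16.7% of the 24, where each single gene makes up 4.17%, and nothing particular to the family is read from them. In bulk samples such as these, fewer cells of a type and less RNA per cell cannot be told apart. The median difference was 0.07 in Sca1+ and 0.05 in Sca1- cells, against 0.03 and 0.02 over all genes. Of the 18 members above the array floor on every array, 16 (88.9%) had the same sign in both fractions, as did 82.4% of the 10261 genes so measured.

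**Figure D1:**
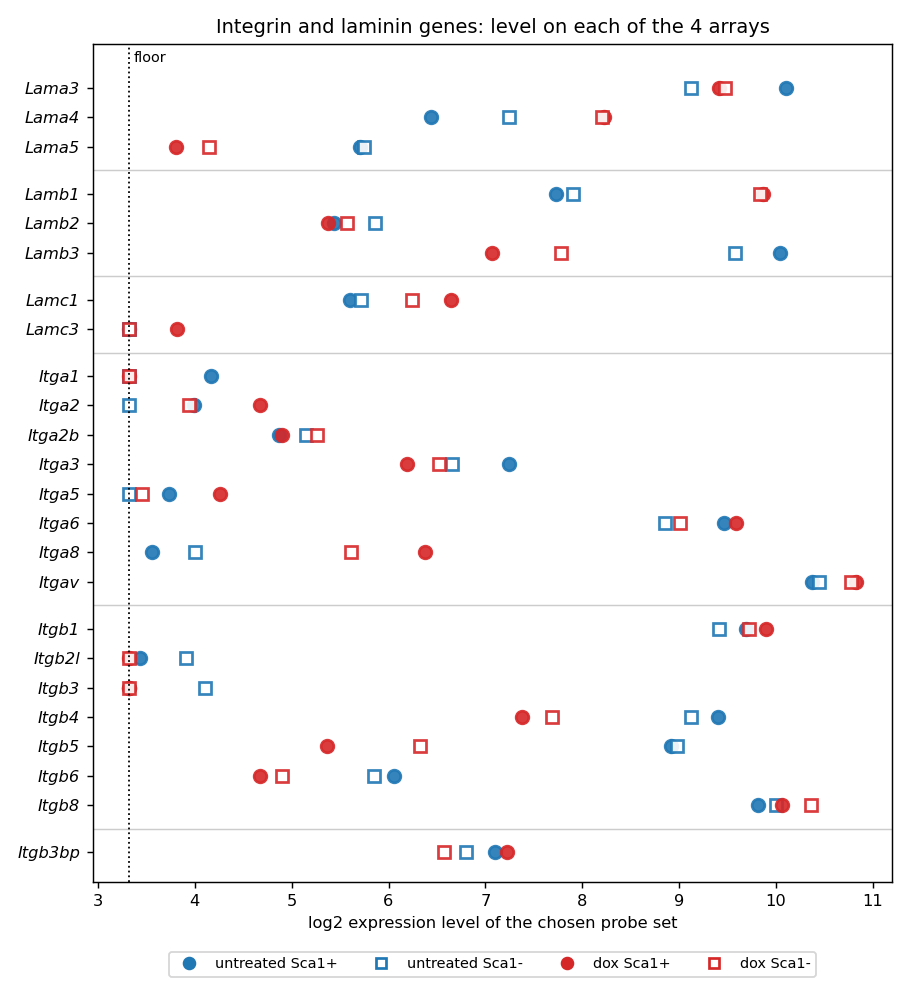
Log2 level of the chosen probe set (horizontal axis) on each of the 4 arrays for the 24 integrin and laminin genes that passed the expression filter, grouped by role; filled circles are Sca1+ and open squares Sca1- cells, blue untreated and red dox, and the dotted line is the floor of 3.32. Both red symbols lie left of both blue ones for Lama5, Lamb3, Itga3, Itgb2l, Itgb4, Itgb5 and Itgb6 and right of them for Lama4, Lamb1, Lamc1, Itga8, Itgav, Itgb1 and Itgb8.

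The laminin chains differed most between the beta chains. Lamb3, the beta chain of the epithelial laminin that anchors hemidesmosomes, read 10.04 (log2) in untreated Sca1+ cells, 9.58 in untreated Sca1- cells, 7.07 in dox Sca1+ cells and 7.78 in dox Sca1- cells. It was therefore low on both dox arrays, 7.87-fold lower with dox in Sca1+ and 3.47-fold lower in Sca1- cells, and its single probe set ranked 139th from the lowest of 12264 genes in Sca1+ cells. Lamb1, the beta chain of the widely made laminins, read 7.73, 7.91, 9.86 and 9.83 in the same order of arrays. It was high on both dox arrays, by 4.37-fold and 3.79-fold. The 3 Lamb1 probe sets above the floor were all higher with dox, by 1.60 to 2.18 (log2) in Sca1+ and by 1.15 to 2.18 in Sca1- cells, while the fourth lay at the floor throughout. Lamb2, the beta chain of synaptic and kidney laminins, read between 5.38 and 5.86 and differed by -0.06 and -0.29 with dox.

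Among the alpha chains, Lama5, which partners with Lamb1 or Lamb2 in a main epithelial basement membrane laminin, was lower with dox. It read 5.71 in untreated Sca1+, 5.75 in untreated Sca1-, 3.81 in dox Sca1+ and 4.15 in dox Sca1- cells, so both dox arrays came near the floor of 3.32 (log2 of 10) below which the authors' table holds no level. The differences were 3.73-fold and 3.03-fold lower. A second Lama5 probe set lay at the floor on both dox arrays and differed by -2.15 or lower and -2.18 or lower (log2). Lama4, an alpha chain best known from vessels and mesenchyme, went the other way: it read 6.43, 7.24, 8.22 and 8.20, a 3.45-fold higher level with dox in Sca1+ and 1.95-fold in Sca1- cells. Its untreated arrays differed from each other by -0.81 (Sca1+ minus Sca1-), and its dox arrays by 0.02. A second, dim Lama4 probe set, at the floor on 1 array of each pair compared, differed by at least 0.55 in Sca1+ and by -0.53 or lower in Sca1- cells, so the probe sets disagree in Sca1- cells.

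Lama3, the alpha chain that pairs with Lamb3, did not follow it. It read 10.10 in untreated Sca1+, 9.12 in untreated Sca1-, 9.41 in dox Sca1+ and 9.48 in dox Sca1- cells: the untreated Sca1+ array was the highest and the dox arrays lay between the untreated ones. The dox difference was -0.70 in Sca1+ and 0.36 in Sca1- cells. The dox difference of Lamb3 minus that of Lama3 was -2.28 (log2) in Sca1+ and -2.15 in Sca1- cells, so the chains of this laminin did not move together. Lamc1, the gamma chain shared by most laminins, read 5.60, 5.72, 6.64 and 6.24, higher with dox by 1.05 in Sca1+ and 0.52 in Sca1- cells. A dimmer Lamc1 probe set gave 1.17 and -0.24, and the 2-fold call in Sca1+ cells was lost when each array was centred on its overall median. Lamc3 was above the floor only on the dox Sca1+ array, at 3.82, and Lama1 and Lama2 were at the floor on all 4 arrays.

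**Figure D2:**
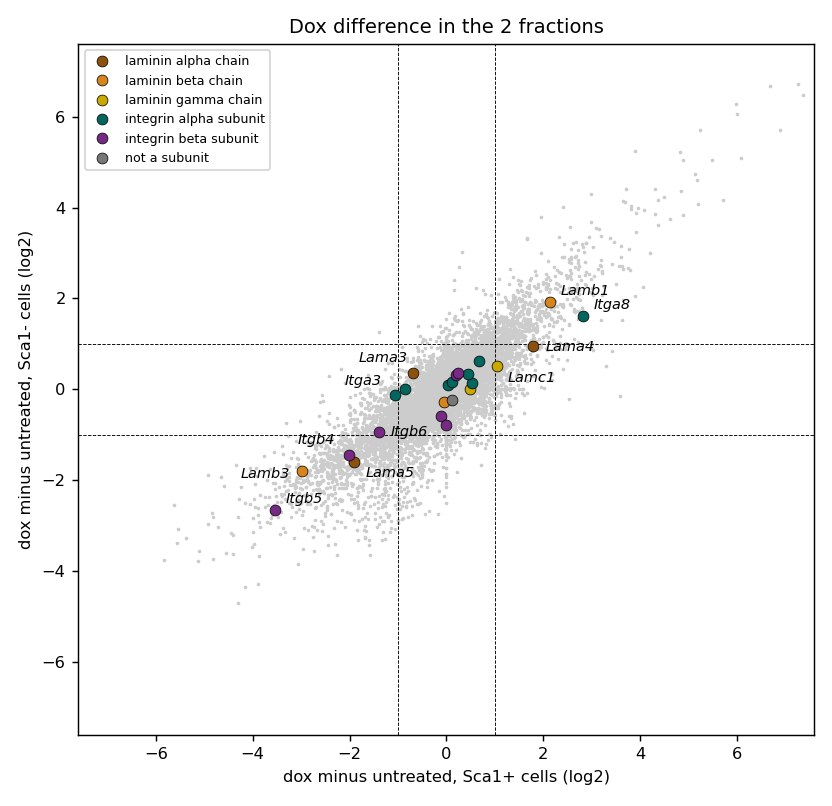
Dox minus untreated log2 difference in Sca1+ cells (horizontal axis) against that in Sca1- cells (vertical axis) for all 12264 genes (grey) and the 24 integrin and laminin genes (coloured by role); dashed lines mark 2-fold. Lamb1 and Itga8 lie beyond the upper right lines, Lamb3, Lama5, Itgb4 and Itgb5 beyond the lower left ones, and Lama3 has opposite signs (-0.70 and 0.36).

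Of the beta subunits, 3 of the 7 that passed the filter were lower by 2-fold or more with dox in Sca1+ cells (12.9% of all genes were) and 2 in Sca1- cells (11.3%), and none was higher; at 7 genes, nothing particular to beta subunits is read from this. Itgb5, which pairs with alpha V to bind vitronectin, differed most of all members. It read 8.91 in untreated Sca1+, 8.97 in untreated Sca1-, 5.37 in dox Sca1+ and 6.32 in dox Sca1- cells. The untreated arrays were alike and both dox arrays far below them, 11.7-fold lower in Sca1+ and 6.30-fold lower in Sca1- cells, the 61st and 115th lowest differences of 12264 genes. All 4 Itgb5 probe sets were lower, by -4.60 to -3.54 (log2) in Sca1+ and by -2.71 to -2.33 in Sca1- cells; 1 of them reached the floor on the dox Sca1+ array.

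Itgb4, the hemidesmosome subunit, read 9.40 and 7.38 in Sca1+ cells without and with dox and 9.12 and 7.69 in Sca1- cells. Both dox arrays were low, by 4.05-fold and 2.70-fold. Itgb6, an epithelial partner of alpha V that binds latent TGF-beta, read 6.05, 5.85, 4.67 and 4.90 in the order used above. It was 2.61-fold lower with dox in Sca1+ and 1.93-fold lower in Sca1- cells, and its second probe set gave -0.94 and -1.03 (log2). Itgb8, another partner of alpha V, read 9.82, 10.00, 10.06 and 10.36 and differed by 0.24 and 0.36. Itgb1, the common partner of most alpha subunits, read 9.69, 9.41, 9.89 and 9.72 and differed by 0.21 and 0.32. Another Itgb1 probe set gave 0.22 and 0.07, and a dimmer one 0.14 and -0.29. Neither Itgb8 nor Itgb1 came near 2-fold with dox. Itgb3 was above the floor only on the untreated Sca1- array (4.10), and Itgb2l only on the untreated arrays (3.44 and 3.91).

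Of the 8 alpha subunits that passed, 1 was 2-fold or more higher with dox in both fractions (5.29% of all genes were) and 0 were lower in both (8.56%). It was Itga8, which pairs with beta 1 and is a receptor for nephronectin. Itga8 read 3.56 in untreated Sca1+, 4.01 in untreated Sca1-, 6.37 in dox Sca1+ and 5.61 in dox Sca1- cells. The untreated arrays lay just above the floor and both dox arrays well above it, by 7.05-fold in Sca1+ and 3.05-fold in Sca1- cells. A second Itga8 probe set was at the floor on all arrays, and averaging both gives a mean dox difference of 1.11 in place of 2.21 (log2). Itga3, a laminin receptor subunit that pairs with beta 1, read 7.24, 6.65, 6.19 and 6.52: with dox it was 2.08-fold lower in Sca1+ cells, a call lost with quantile normalization, and differed by -0.13 (log2) in Sca1- cells. A second Itga3 probe set was above the floor on the untreated Sca1+ array alone, at 5.04. Itga6, the partner of beta 4 and also of beta 1 in laminin receptors, read 9.47, 8.85, 9.59 and 9.01 and differed by 0.12 and 0.16. The dox difference of Itgb4 minus that of Itga6 was -2.14 in Sca1+ and -1.60 in Sca1- cells.

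Itgav encodes alpha V, the partner of beta 5, beta 6 and beta 8. It read 10.37, 10.44, 10.83 and 10.77 and differed with dox by 0.46 and 0.33; a dimmer probe set gave 1.03 and 0.67, and another one, at the floor on both dox arrays, -0.17 or lower and -0.09 or lower. The dox difference of Itgb5 minus that of Itgav was -4.0 and -2.98, and that of Itgb6 minus that of Itgav was -1.84 and -1.28. Itga2, a collagen receptor subunit, read 4.0, 3.32 (floor), 4.67 and 3.94, and Itga5, the fibronectin receptor subunit, 3.73, 3.32 (floor), 4.26 and 3.46. Both were low on every array, with dox differences of 0.67 and at least 0.62 for Itga2 and of 0.53 and at least 0.14 for Itga5. Itga1 was above the floor only in untreated Sca1+ cells (4.17). Itga2b, a platelet subunit, read 4.87 to 5.26 on all arrays, and of 5 platelet markers Pf4 and Gp9 were at the floor on all 4, Gp1bb was above it on all 4 (3.74 to 4.35), and Ppbp (at most 4.14) and Gp6 (at most 3.75) were above it on 2.

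**Figure D3:**
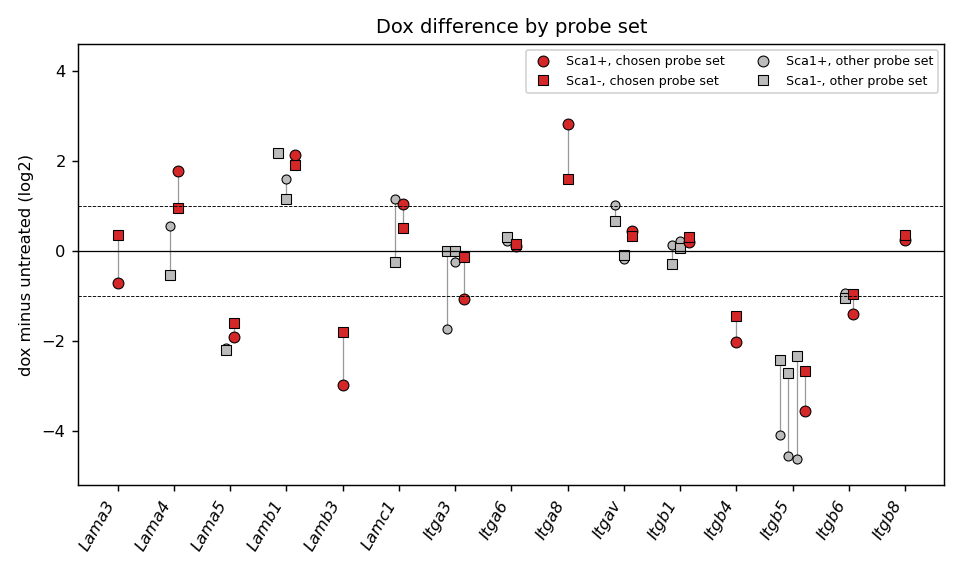
Dox minus untreated log2 difference (vertical axis) for every probe set above the floor on at least 1 array, for 15 integrin and laminin genes; circles are Sca1+ and squares Sca1- cells, red the chosen and grey the other probe sets, and thin lines join the fractions. All 4 Itgb5 probe sets lie below -2 and all 3 Lamb1 probe sets above 1. The probe sets of Lama4, Lamc1, Itgav and Itgb1 differ in sign in Sca1- cells, and those of Itgav also in Sca1+ cells.

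The subunits of leukocyte integrins were at or near the floor. Itgal, Itgam, Itgax and Itga4 lay there on all 4 arrays. Itgae (at most 3.51), Itgb2 (3.37) and Itgb7 (3.35) were just above it on 1 or 2 dox arrays and did not pass the filter. Of 9 leukocyte markers, Ptprc, Cd53, Cd3e and Tyrobp were at the floor on all 4 arrays, Laptm5 (3.56 to 4.25), Csf1r (4.06 to 4.79) and Cd68 were above it on all 4, and Coro1a (at most 3.83) and Lyz2 (at most 3.65) on 2. Cd68 was higher with dox by 2.79 and 2.40 (log2), and the summed linear level of the 9 was 98.7 and 110 on the untreated and 185 and 170 on the dox arrays (Sca1+ first). Itga7, Itga9, Lama1 and Lama2 were at the floor as well, and Itga10 did not pass.

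Markers of stromal cells were mostly dim, apart from Dcn on the dox arrays. Of 5 endothelial markers, Cdh5, Tek and Emcn were at the floor on all arrays, Kdr was above it on 3 (at most 3.68) and Pecam1 on 1 (3.44), and their summed linear level was 50.0 to 53.6. Of 5 fibroblast markers, Col1a1 was at the floor on all arrays, Pdgfra was above it on all (4.24, 5.15, 4.12 and 4.45 in the order used above), and Dcn, Lum (3.62 and 4.14) and Col1a2 (3.45 and 3.53) were above it on both dox arrays and on neither untreated one. By its brighter probe set Dcn read 9.41 in dox Sca1+ and 8.42 in dox Sca1- cells. Its mean dox difference was 5.59 by that probe set and 0.29 by its other one. Dcn supplied most of the dox level of the 5 markers, whose sum was 58.9 and 75.4 without and 730 and 404 with dox. Their part in the integrin and laminin differences was not tested.

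Markers of the mammary cell types and of dividing cells also differed with dox; of all genes, 8.56% were lower by 2-fold or more in both fractions and 11.3% in Sca1- cells. Of 6 basal markers, 2 were lower by 2-fold or more in both fractions (Krt5 and Acta2) and 1 (Myh11) was at the floor throughout. The others differed by under 2-fold in Sca1- cells: Krt14 by 0.10 in Sca1+ and 0.38 in Sca1- cells, Trp63 by -0.43 and -0.15, and Krt17 by -1.11 and -0.10 (log2). The summed linear level of the 6 went from 9290 to 5540 in Sca1+ and from 6430 to 5450 in Sca1- cells. Of 8 luminal markers, 4 were lower by 2-fold or more in both fractions (Krt8, Krt7, Cldn7 and Elf5) and Krt19 was at the floor throughout, and the sum went from 4150 to 2340 and from 8520 to 4050. Of the 9 mitotic genes with a probe set, 4 were lower in both fractions, 9 of 9 were lower in Sca1- cells, and the sum went from 8170 to 3600 and from 3650 to 555. Their part in the integrin and laminin differences was not tested.

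By their chosen probe sets, all 6 genes that were different by 2-fold or more in both fractions differed more in Sca1+ than in Sca1- cells. So did 64.9% of the 1699 such genes among all genes. Another Lamb1 probe set gave 2.18 (log2) in both fractions. The second Lama5 probe set gave -2.15 or lower in Sca1+ and -2.18 or lower in Sca1- cells. The dox difference in Sca1+ cells minus that in Sca1- cells was -1.18 for Lamb3, -1.05 for Lama3 and 1.21 for Itga8, and no other member reached 1 in size by its chosen probe set; 3.44% of all genes had such a difference of -1 or lower and 3.69% of 1 or higher. For Itgb5 it was -0.89 by the chosen probe set, but -1.66, -1.83 or lower, and -2.28 by the other 3. The dimmer Lamc1 probe set gave 1.41. Other probe sets of Itga3, Lama4 and Itgb3bp, each at the floor on 1 to 3 arrays, also reached 1 in size.

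Between the Sca1 fractions, no member was different by 2-fold or more in either treatment by its chosen probe set. Without dox, 3.07% of all genes were higher by 2-fold or more in Sca1+ cells and 3.33% lower; with dox these shares were 2.52% and 2.98%, and in the same direction both times 1.08% and 0.881%. At such shares under 1 of 24 genes would be counted in each direction, so the 0 is near the background. The largest difference without dox by a chosen probe set was that of Lama3, 1.98-fold higher in Sca1+ cells, and that gene differed by -0.07 with dox. Another Itga3 probe set gave at least 1.72 (log2) without dox and was at the floor on both dox arrays. With dox, Itgb5 was 1.93-fold lower in Sca1+ cells by the chosen probe set, while its other 3 probe sets gave -1.74, -1.89 or lower, and -2.15 (log2); without dox the chosen probe set gave -0.06.

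The laminin receptor subunit Itga6 was the steadier of the Sca1 differences, 1.53-fold higher in Sca1+ cells without and 1.49-fold with dox, and Itga2 was higher by at least 0.67 and by 0.73. Lamb3 was 1.38-fold higher in Sca1+ cells without dox and 1.64-fold lower with it. Itga8 and Itga3 also had opposite signs in the untreated and dox pairs, at -0.45 and 0.76 for Itga8 and 0.59 and -0.33 for Itga3. Of the 18 members above the floor on all arrays, 8 (44.4%) had the same sign of the Sca1 difference both times, against 64.9% of the 10261 genes so measured. Beside these values, 8 of the 9 mitotic genes were 2-fold or more higher in Sca1+ cells both times (1.08% of all genes). The mitotic list was chosen as one already known to move with the Sca1 fraction in these data, so its count is no separate evidence. Of 8 luminal markers, 4 were lower by 2-fold or more both times (0.881% of all genes). The part of either list was not tested. Itgav, Itgb1, Itgb8, Itga2b and Lamb2 differed by under 1.5-fold in all 4 comparisons, 27.8% of the 18 members, against 49.1% of the genes measured above the floor.

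**Figure D4:**
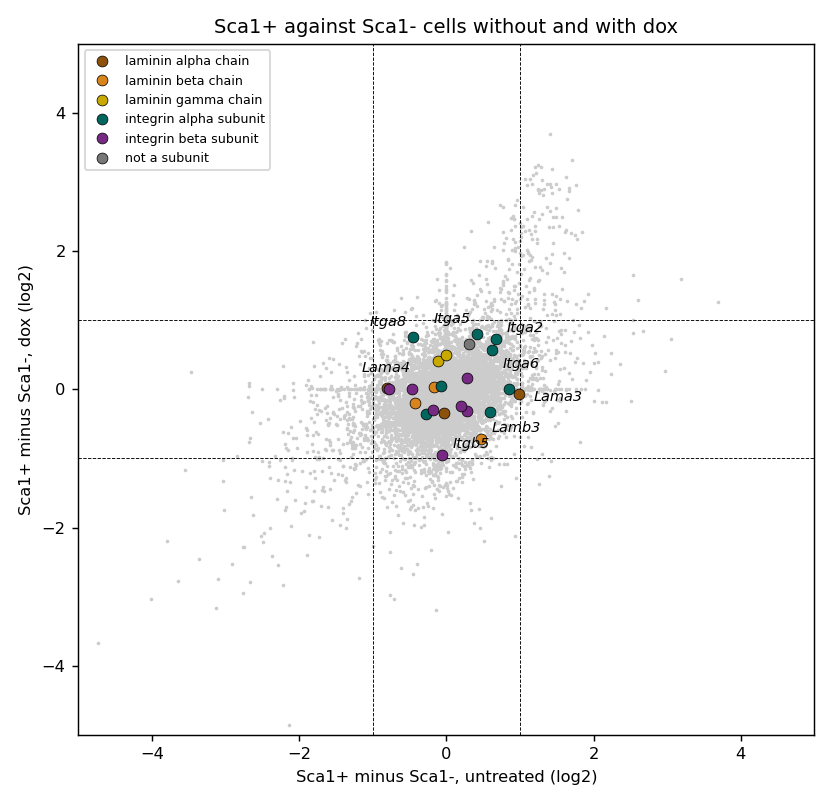
Sca1+ minus Sca1- log2 difference without dox (horizontal axis) against that with dox (vertical axis) for all 12264 genes (grey) and the 24 integrin and laminin genes (coloured by role); dashed lines mark 2-fold. Every coloured point lies inside the dashed square; Lama3 is furthest right (0.98) and Itgb5 lowest (-0.95).

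Genes that work with integrins and laminins were read from 5 lists, with 77 genes on the array and 64 past the filter. Of the 64, 4 were higher by 2-fold or more with dox in both fractions and 11 lower, beside 5.29% and 8.56% of all genes. Of 22 focal adhesion adaptors and kinases, 1 was higher in both fractions and 4 were lower. Vcl, the actin-binding protein vinculin, read 9.97, 9.95, 10.99 and 11.05 and was 2.03-fold and 2.14-fold higher, and its other probe set gave 0.53 and 0.60 (log2). Parva, which forms a complex with the integrin-linked kinase, was 5.27-fold and 2.89-fold lower, and both its probe sets were lower. The scaffold gene Bcar1 was 3.17-fold and 2.58-fold lower. Its other probe set gave -1.35 and -0.97 (log2), the latter just under 2-fold. Tns3, a tensin gene, was 4.43-fold and 2.06-fold lower. The other Tns3 probe set differed by 0.09 and 0.07. Tns2, another tensin gene, was at the floor with dox, a difference of -2.05 or lower and -1.72 or lower.

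Of 13 regulators of integrin activity and tetraspanins, 2 were lower with dox in both fractions (8.56% of all genes) and 0 higher (5.29%). At 13 genes, nothing particular to the list is read from this. The tetraspanin gene Tspan4 read 8.15 and 8.68 on the untreated and 4.94 and 5.87 on the dox arrays (Sca1+ first), 9.28-fold and 6.99-fold lower. Cd151, a tetraspanin that binds the laminin receptors alpha 3 beta 1 and alpha 6 beta 4 and is also 1 of the 4 hemidesmosome genes listed, was 3.03-fold and 2.18-fold lower; over its 5 probe sets the difference ran from -1.83 to 0.99 in Sca1+ cells. The other hemidesmosome genes Plec, Dst and Col17a1 were not 2-fold different in both fractions, at -1.14 and -0.71, -0.58 and -0.53, and 0.52 and 0.92.

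Of 13 other basement membrane genes and laminin receptors, 2 were lower with dox in both fractions, beside 8.56% of all genes. At 13 genes, nothing particular to the list is read from this. Col7a1, the anchoring fibril collagen that binds the Lamb3-containing laminin, read 8.96, 7.74, 5.77 and 5.42 and was 9.13-fold and 4.99-fold lower. The proteoglycan Sdc4 was 3.09-fold and 2.20-fold lower by its brighter probe set, and its other probe set was also lower. The nidogens Nid1 and Nid2 were at the floor on all arrays.

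Of 13 integrin ligands, 3 were higher by 2-fold or more with dox in both fractions, beside 5.29% of all genes, and 3 lower, beside 8.56%. Npnt, which encodes nephronectin, the ligand of the Itga8 receptor, read 3.76 in untreated Sca1+, 3.78 in untreated Sca1-, 7.34 in dox Sca1+ and 6.51 in dox Sca1- cells, 11.9-fold and 6.62-fold higher. Across the 4 Npnt probe sets above the floor the mean dox difference ran from 0.23 to 3.15. Like Itga8, it was near the floor on both untreated arrays and higher in Sca1+ than in Sca1- cells with dox. The fibronectin gene Fn1 read 9.73, 10.78, 11.92 and 11.87, higher by both of its probe sets, and Vcam1 was at the floor without dox and at 4.88 and 5.48 with it, although its 3 probe sets ran from -0.72 to 1.56 (log2) in Sca1+ cells. Thbs1 (thrombospondin 1) was 14.8-fold and 6.14-fold lower, the elastic fibre gene Fbln5 5.49-fold and 6.08-fold, and Mfge8, a ligand of alpha V integrins, 2.65-fold and 4.21-fold. The other Thbs1 probe set gave smaller dox differences, -2.31 in Sca1+ and -2.44 in Sca1- cells (log2). Between fractions, Tgfb3 and Thbs1 were lower by 2-fold or more in Sca1+ cells both without and with dox, Tgfb3 by 3.89-fold and 2.27-fold. Thbs1 was just past 2-fold lower without dox and at -2.27 (log2) with it by its chosen probe set, but at -0.90 and -0.77 by its other one, which is under 2-fold both times.

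**Figure D5:**
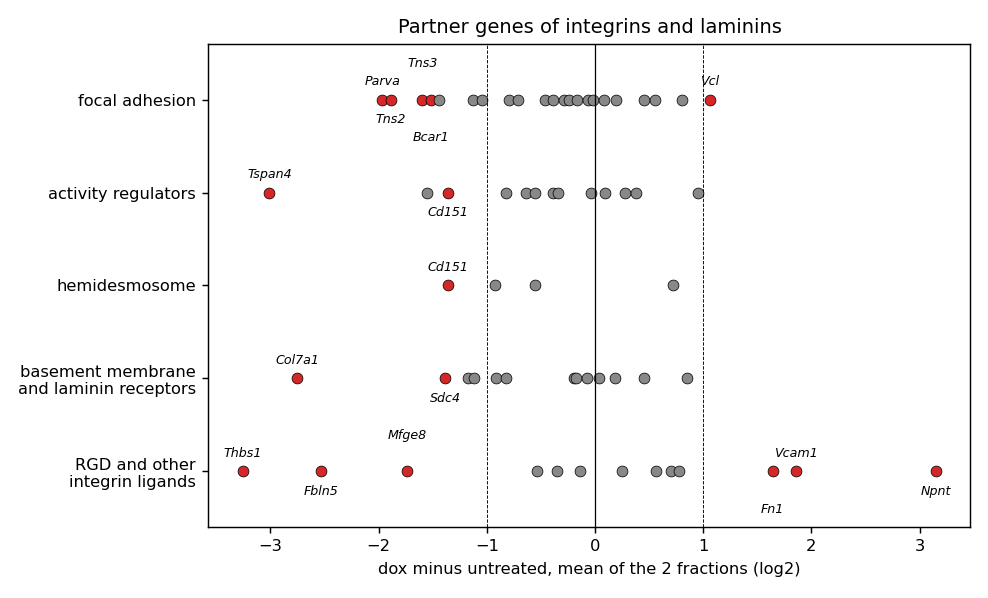
Dox minus untreated log2 difference, averaged over both fractions (horizontal axis), for the genes of the 5 lists that passed the expression filter; each point is a gene, red where at least 2-fold in the same direction in both fractions, and Cd151 is in 2 lists. Npnt (3.15) and Tspan4 (-3.01) lie far to either side, and 11 of the 64 genes are red on the lower side.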

How the data were processed

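RNA from sorted Comma D beta cells was labelled with an Affymetrix 3' IVT kit, per the labels' protocols, and 1 array was run for each of 4 groups. The authors deposited log2 levels of 45101 probe sets; how they were summarized and scaled is not stated in the labels. No value is under 3.32, the log2 of 10, and 44.8% to 48.0% of probe sets lie there on each array, so a difference against it is a lower bound ("at least"). Probe sets with 1 gene symbol in the platform annotation (34958; 932 had several and 9211 none) were used, and each gene took its probe set with the highest mean. Differences of log2 levels were computed with Python 3.11.15 and pandas 2.3.3, and the counting rule was tested on simulated data. The members, gene lists and rule of size were chosen with earlier results of these data known. Members that passed the filter were named; list genes were named where at least 2-fold in both differences of a pair, and the hemidesmosome genes and the markers of other cell types were named to complete their lists; Nid1, Nid2 and the single markers of mammary cells were named after their values were seen. With 1 array a group, no p-value or standard deviation is given, and the number of arrays limits the precision. Array names of genes were kept. Promoter sequences and their coordinates are RefSeq's for GRCm38.p6; the array files name no build.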

Additional observations from a re-analysis of the deposited data

Results flagged for a closer look

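Lama3 had dox differences of opposite direction in the fractions, -0.70 in Sca1+ and 0.36 in Sca1- cells, so that the dox difference in Sca1+ minus that in Sca1- cells was -1.05 (log2). With 1 array in each group this difference between the fractions was not tested. It rests on 1 probe set, since the other Lama3 probe set was at the floor on all 4 arrays.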

How the results depend on the processing

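With other processing, no member with a mean dox difference of 2-fold or more changed sign. Of the 8 members with a mean dox difference of 2-fold or more, all 8 kept it with the floor raised to a linear level of 20, with no filter, above the floor on all arrays, with both centrings and with quantile normalization, and 7 kept it with probe sets averaged, where Lama4 came to 0.69. Restricted to probe sets ending in _at, all 6 that had one kept it, but Lamb3 and Itgb4 have no such probe set, so the members lower in Sca1- cells and in both fractions each numbered 2 in place of 4, and 1 (Itgb5) was lower in Sca1+ cells with dox. With probe sets averaged, members higher in Sca1- cells and in both fractions each numbered 1 in place of 2 (Itga8 was lost), and 1 was lower in Sca1+ cells with dox. With a highest array of 100 or more, where Itga8 is left out, the members higher in Sca1- cells and in both fractions again each numbered 1. At 1.5-fold, 4 members were higher in Sca1- cells and 4 in both fractions; between the fractions 5 were higher and 2 lower in Sca1+ cells without dox, 4 higher and 2 lower with dox, and 1 (Itga2) higher both times. Centring on the overall median, which for the untreated Sca1+ array lay -0.15 from the mean of the 4 medians, gave 2 members higher in Sca1+ cells without dox, Itga1 and Lama3, and with dox in Sca1+ cells 3 higher in place of 4 (Lamc1 was lost) and 7 lower in place of 6 (Itga1 was added). With quantile normalization 5 were lower there (Itga3 was lost). The median dox difference over members (0.0069) was -0.015 with probe sets averaged, 0.14 with _at probe sets, 0.14 with a highest array of 100 or more, -0.0702 after that centring and 0.0402 after quantile normalization. The median Sca1 difference (-0.012) was 0.037, 0.089, 0.098 and 0.0201 with averaged probe sets, _at probe sets, that centring and quantile normalization. No paired analysis was possible because each group has 1 array and the labels give no replicate numbers. Levels under 10 cannot be read, which limits Itga1, Itga2, Itga5, Itgb3, Itgb2l and Lamc3.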
